A study of Homo sapiens with 4 samples.

Results

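The genes EGLN3, NDRG1, ALDOC and ARRDC4, known from the cell's responses to low oxygen and to glucose, were followed in MEG-01 cells depleted of OGT. MEG-01 is a human megakaryoblastic leukaemia line that sheds platelet-like particles, and OGT is the transferase that places the sugar O-GlcNAc on proteins of the nucleus and cytosol. The 4 genes were taken by symbol from the authors' deposited table of 426 genes that differed between the groups. They were selected on that same difference, so their changes are given as a description with no test of their own. There were 2 libraries of wild-type (WT) cells and 2 of OGT-depleted cells, titled CR_OGT. The depleted cells had received a lentiviral vector carrying both a guide RNA against OGT and SpCas9, and all cells grew in RPMI1640 medium with fetal bovine serum. Whether the depleted cells were a pool or a clone, and whether WT cells received any vector, is not stated by the labels. The treated columns of the table are headed OGTi and were matched to the CR_OGT titles by the name OGT and the replicate number, without a statement of what OGTi means.

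When oxygen is plentiful, prolyl hydroxylases of the EGLN family mark hypoxia-inducible factor (HIF) for destruction. When oxygen falls, HIF builds up and switches on genes of glycolysis, oxygen sensing and stress, EGLN3 itself among them. Glucose is read by a separate pair of transcription factors, MondoA and ChREBP, which respond to sugar phosphates and drive genes such as the alpha-arrestins TXNIP and ARRDC4. O-GlcNAc is linked to the same metabolism because its donor sugar is made from glucose through the hexosamine pathway.

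Library depth, worked out from deposited counts and FPKM, lay between 17643474 and 19883586 counted reads. OGT transcript, the target of the guide, had normalized read counts (raw counts over a size factor per library) of 16012 and 19190 in WT and 9124 and 12185 in depleted cells. The depleted mean was 60.5% of the WT mean, so much of the transcript was still present. The labels name OGT as the target but give no level, and OGT is itself among the genes the authors called as changed. How far OGT protein fell cannot be read from these RNA libraries. All 4 genes were among the 248 called higher in the authors' deposited table, out of about 13154 genes tested there. That is a background of 1.89% called higher and 3.24% called in either direction, and since these calls chose the genes nothing is read from the count. The deposited adjusted p-values by which they entered the table were 2.24e-15 for EGLN3, 4.36e-05 for NDRG1, 0.0282 for ARRDC4 and 0.0371 for ALDOC, with 0.0497 the highest in the table. Genes beyond that limit are not analysed here, so no value just outside it can be given. The authors' own log2 fold changes were 1.35 for EGLN3, 0.68 for NDRG1, 0.60 for ALDOC and 0.49 for ARRDC4. They were 0.75 to 0.89 of the log2 ratios of group means, and so smaller than the edgeR values below. The labels do not say that replicates were separate cultures, so errors measure the spread between libraries, which may be technical only. Lower RNA per cell and fewer cells of one kind cannot be told apart in such bulk libraries.

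EGLN3 had the largest change of the 4 genes, about 3-fold. It encodes a HIF prolyl hydroxylase and is itself a HIF target, so that it acts as a brake on the pathway that induces it. Its normalized read counts were 482 (replicate 1) and 407 (replicate 2) for WT, against 1476 (replicate 1) and 1214 (replicate 2) for OGT depletion. Both depleted libraries lay well above both WT libraries, and the lower depleted value was 2.52-fold the higher WT value. That ratio was at least 1.11 in all 248 higher genes, with a median of 1.65. Groups that do not overlap are therefore shared by every higher gene and are not particular to those described here. The means were 445 ± 53.3 in WT and 1345 ± 185 after depletion (SD, n = 2), a 3.03-fold difference and a log2 fold change of 1.60 ± 0.14 (SE, edgeR). The gap was far wider than the spread, since replicates of a group differed by 1.19-fold in WT and 1.22-fold after depletion. Raw counts were 395 to 1558 reads, for which counting alone gives an error of 2.53% to 5.03% per library. EGLN3 (ENSG00000129521) lies on the minus strand of chromosome 14, from 34393437 to 34931980 in hg19. That annotated span is 538.5 kb for a counted length of 2849 bases, and reads from genes inside it or antisense to it cannot be told apart from EGLN3, because no source used here gives the strand setting. The nearest listed genes on the chromosome were MMP14, 11.1 Mb before it, and KIAA0247, 35.1 Mb after it, and these were lower, at 68.2% and 71.9% of WT.

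NDRG1 was about 1.7 times as high after OGT depletion, with the tightest replicates of the 4 genes. It encodes a cytoplasmic stress-response protein that is induced by hypoxia and during differentiation. Normalized read counts were 1017 and 998 in the WT libraries and 1682 and 1747 in the depleted ones. The groups were clearly apart, while replicates of a group differed by only 1.02-fold in WT and 1.04-fold after depletion. Means of 1008 ± 13.6 and 1715 ± 45.9 (SD, n = 2) gave a 1.70-fold difference and a log2 fold change of 0.77 ± 0.11 (SE, edgeR). The edgeR error is wider than those replicates alone would give because it borrows the spread of the other listed genes. NDRG1 (ENSG00000104419) lies on the minus strand of chromosome 8, from 134249414 to 134314265 in hg19, with a counted length of 3983 bases. On that chromosome 19 of 25 listed genes were higher, against 248 of all 426 listed genes. All 12 other listed genes within 20 Mb of NDRG1 were higher, with a median of 1.53-fold. Its nearest listed neighbours were FAM83A, 10.0 Mb before it and 2.35-fold higher, and LY6E, 9.79 Mb after it and 1.59-fold higher. The part that this stretch of the chromosome has in the NDRG1 value was not tested. By contrast, the listed genes within 20 Mb of ALDOC went both ways (6 higher, 8 lower), as did the 3 near ARRDC4 (2 higher, 1 lower).

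ALDOC, the lowest of the 4 per length, was also about 1.7 times as high, with wider replicates. It encodes aldolase C, the brain-enriched form of the glycolytic enzyme that splits fructose-1,6-bisphosphate into triose phosphates. Normalized read counts were 201 and 164 for WT cells, against 348 and 286 for depleted cells. The groups did not overlap, and the lower depleted library was 1.42-fold the higher WT library, below the median of 1.65 over all higher genes. Means were 182 ± 26.4 and 317 ± 43.9 (SD, n = 2), a 1.74-fold difference and a log2 fold change of 0.80 ± 0.18 (SE, edgeR). Only 159 to 367 reads stand behind each value, a counting error of 5.22% to 7.93% per library. The spread between replicates was larger than that, 14.5% of the mean in WT and 13.9% after depletion. The gene (ENSG00000109107) lies on the minus strand of chromosome 17, from 26900133 to 26904282 in hg19, with a counted length of 1982 bases. The listed gene nearest to it, AC010761.8, begins 0.144 Mb further along and was lower, at 61.8% of WT, whereas UBB, 10.6 Mb before it, was 1.61-fold higher.

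ARRDC4 had the smallest change, about 1.5-fold. It encodes an alpha-arrestin, a relative of TXNIP that is switched on by MondoA when glucose is plentiful and that restrains glucose uptake. Normalized read counts were 704 and 610 for WT cells, against 1017 and 937 for depleted cells. Here too the 2 groups stayed apart, although the lower depleted library was only 1.33-fold the higher WT library. That is below the lower quartile of 1.38 over all higher genes. Means were 657 ± 67.0 and 977 ± 56.6 (SD, n = 2), a 1.49-fold difference and a log2 fold change of 0.57 ± 0.13 (SE, edgeR). ARRDC4 (ENSG00000140450) lies on the plus strand of chromosome 15, from 98462784 to 98517068 in hg19, with a counted length of 4072 bases. The only listed neighbour beside it, NR2F2, ends 1.58 Mb before it and was 1.59-fold higher.

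**Figure D1:**
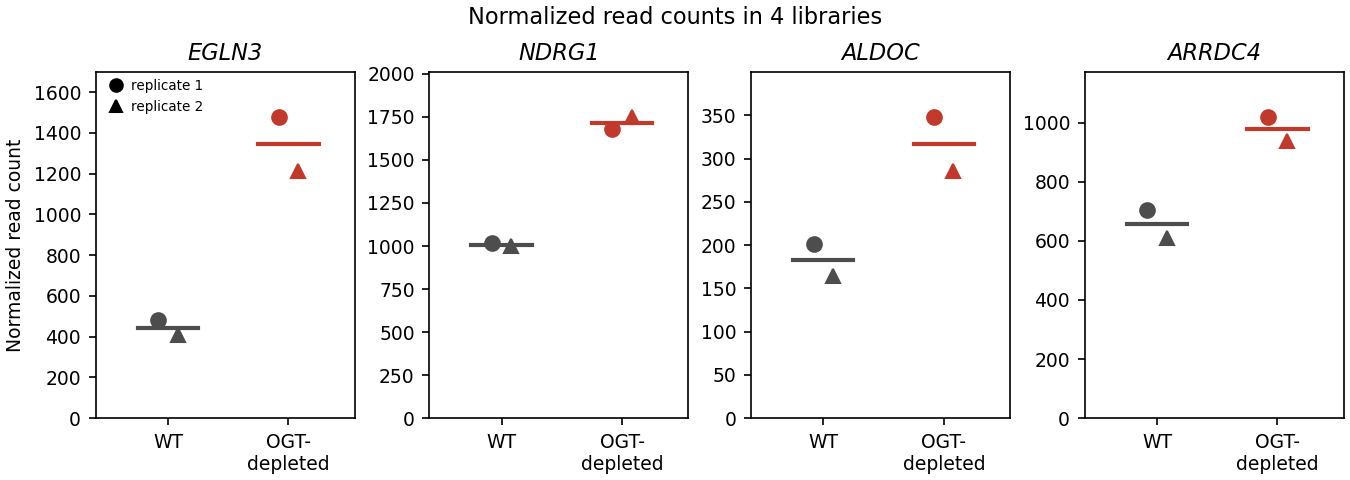
Normalized read counts (y axis, each panel from 0) of the 4 genes in WT (grey) and OGT-depleted (red) libraries; circles are replicate 1, triangles replicate 2 and bars the group means. In every panel both red points lie above both grey points, with the widest gap for EGLN3 (407 to 482 against 1214 to 1476). The groups are apart in this way in all 248 higher genes.

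The promoter windows of 3 of the genes are shown because genes that moved together can be compared for the letters that HIF and the glucose-sensing factors bind. HIF binds a short core, ACGTG or GCGTG. MondoA and ChREBP bind pairs of E-boxes of or close to the form CACGTG, a palindrome that contains ACGTG on both strands. Single exact copies of CACGTG were searched for, so pairs and inexact copies were not looked at. Each window runs from 250 bases before to 50 bases after the RefSeq transcription start (GRCh38.p14), 5′ to 3′ on the gene's strand. These starts were not compared with the ends of the counted hg19 spans, so a window may not belong to the transcripts that were counted. The windows are chr14:33951025-33951324 (minus strand) for EGLN3, chr17:28576846-28577145 (minus strand) for ALDOC and chr15:97960453-97960752 (plus strand) for ARRDC4. Capitals mark every match to these motifs on either strand. No window is shown for NDRG1.
EGLN3: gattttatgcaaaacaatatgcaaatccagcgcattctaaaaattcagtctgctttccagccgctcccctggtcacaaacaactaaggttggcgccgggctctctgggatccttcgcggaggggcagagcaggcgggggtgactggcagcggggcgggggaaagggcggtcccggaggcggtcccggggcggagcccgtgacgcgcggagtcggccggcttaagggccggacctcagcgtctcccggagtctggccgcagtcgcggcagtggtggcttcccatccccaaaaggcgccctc
ALDOC: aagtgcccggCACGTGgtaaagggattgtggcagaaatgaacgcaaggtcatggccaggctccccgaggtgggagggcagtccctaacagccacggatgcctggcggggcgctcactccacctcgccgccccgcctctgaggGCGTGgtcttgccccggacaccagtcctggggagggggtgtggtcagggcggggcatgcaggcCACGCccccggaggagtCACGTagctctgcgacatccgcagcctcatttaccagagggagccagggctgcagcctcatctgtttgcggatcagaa
ARRDC4: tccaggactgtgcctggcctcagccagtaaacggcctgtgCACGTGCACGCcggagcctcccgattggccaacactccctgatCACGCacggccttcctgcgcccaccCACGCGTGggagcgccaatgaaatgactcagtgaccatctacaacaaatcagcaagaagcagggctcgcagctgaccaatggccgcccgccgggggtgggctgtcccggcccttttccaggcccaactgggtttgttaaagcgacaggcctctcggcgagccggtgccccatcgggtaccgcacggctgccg

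The EGLN3 window held no match to either HIF core. The ALDOC window held 5 core matches, 3 of ACGTG and 2 of GCGTG. The ARRDC4 window held 6, with 2 of ACGTG and 4 of GCGTG. One palindromic E-box stood in each of the ALDOC and ARRDC4 windows, at 240 and 210 bases before the start, and gives 2 of the ACGTG matches in each. Such matches are common: 48.4% of 35116 human promoter windows of the same length held at least 1 core and 7.26% held an E-box. At least 5 core matches were found in 1.98% of windows and at least 6 in 0.923%. GC content was 65.0% for EGLN3 and ARRDC4 and 66.0% for ALDOC, above the median of 58.7% over all windows, and these motifs are rich in G and C. A match describes letters and is not a bound site, no match says only that these letters are not in this window, and no binding was measured here.

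**Figure D2:**
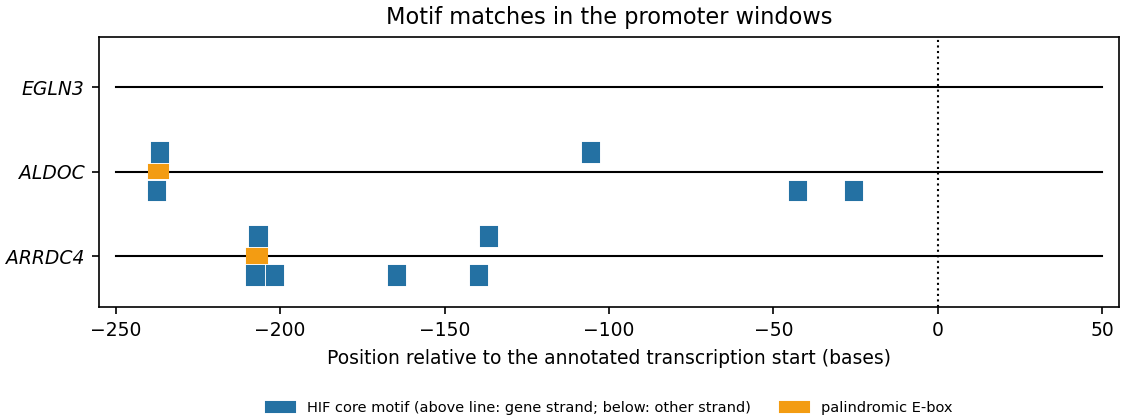
Positions of motif matches (x axis, bases from the annotated transcription start, dotted line at 0) in the windows of EGLN3, ALDOC and ARRDC4; blue boxes are HIF core matches on the gene's strand (above the line) or the other strand (below) and orange boxes are palindromic E-boxes. EGLN3 has 0 matches, ALDOC 5 core matches and ARRDC4 6, with 1 E-box in each of the last 2.

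Levels of different genes can be compared only per length, as FPKM (reads scaled by gene length and library depth). In WT cells NDRG1 was highest, with FPKM levels of 13.3 and 13.8. ARRDC4 (8.99 and 8.24) and EGLN3 (8.80 and 7.86) came next. ARRDC4 was slightly higher within each WT library, but the ranges overlapped, so no firm order is given between them. ALDOC was lowest, with FPKM levels of 5.28 and 4.55. After OGT depletion EGLN3 (27.5 and 23.6) shared the top with NDRG1 (22.4 and 24.3), again with overlapping ranges. ARRDC4 followed at 13.3 and 12.7, and ALDOC stayed lowest at 9.31 and 7.98. EGLN3 thus passed from near the level of ARRDC4 in WT to that of NDRG1 in depleted cells, the one clear shift in position among the 4. Among the 426 listed genes the WT levels were unremarkable, with a median FPKM of 11.7 for the table and ranks of 202 (NDRG1), 241 (ARRDC4), 244 (EGLN3) and 290 (ALDOC) from the top.

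**Figure D3:**
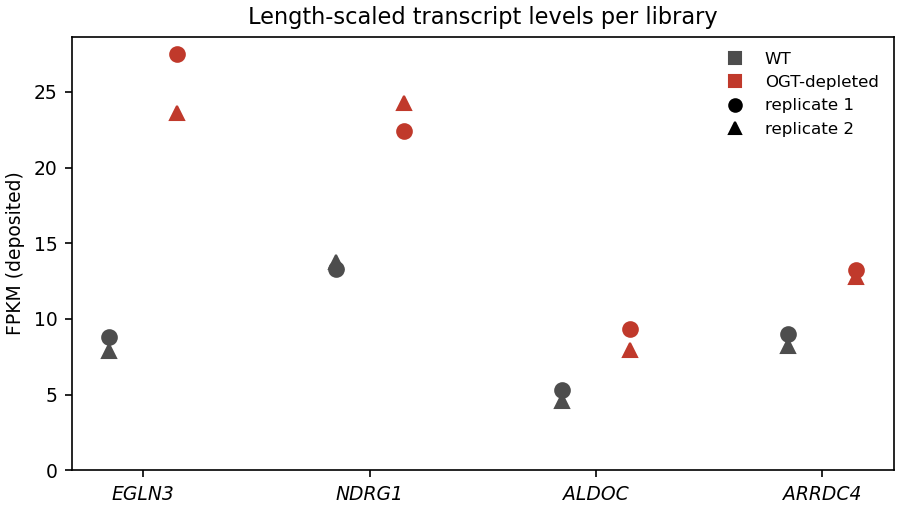
Deposited FPKM (y axis, from 0) of the 4 genes in each library; grey is WT, red is OGT-depleted, circles are replicate 1 and triangles replicate 2. EGLN3 sits beside ARRDC4 in WT (7.86 to 8.99) and beside NDRG1 after depletion (22.4 to 27.5).

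Other genes of the oxygen and glucose pathways were counted against the 3.24% of all tested genes that the table lists. The lists were drawn up with the 4 genes known, so the shares that include them are descriptions. Because the 4 genes were themselves taken from the listed genes, they raise every share that includes them, and no excess is read from those shares. Among 20 regulators of HIF (HIF subunits, hydroxylases, the VHL complex and coactivators) EGLN3 was the only one listed (5%). Of 50 HIF target genes 4 were listed (8%), 3 higher and 1 lower, and 2 of these are genes described here. Besides EGLN3 and NDRG1 these were STC1, a secreted glycoprotein hormone, and BHLHE40, a transcriptional repressor of the circadian and hypoxia responses. STC1 was at 167 and 175 normalized counts in WT and 338 and 339 after depletion, a 1.98-fold difference with nearly equal replicates. BHLHE40 went the other way, from 7715 and 7099 to 4936 and 4978 normalized counts, or 66.9% of WT. Of the listed HIF targets, 1 was therefore lower in the libraries in which the other 3 were higher. ALDOC was counted with the glycolytic enzymes and not on the HIF target list.

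Of 37 glycolytic enzymes and glucose transporters, 2 were listed (5.41%, against 3.24% of all tested genes), both higher. ALDOC, listed by choice, is 1 of these, so no excess is read from the share. The other was PKLR, the pyruvate kinase of liver and red cells and a ChREBP target, with 200.1 and 198 normalized counts in WT and 452 and 526 after depletion. Its 2.46-fold difference exceeded that of ALDOC. Of 22 genes of glucose sensing through MondoA and ChREBP, 4 were listed (18.2%), 3 higher (ARRDC4, ARRDC3 and PKLR) and 1 lower (BHLHE40, which is on both lists). ARRDC3, an alpha-arrestin that sorts cell-surface receptors, had 589 and 515 normalized counts in WT and 858 and 846 after depletion, a 1.54-fold difference close to the 1.49-fold of ARRDC4. In the families of the 4 genes (EGLN, NDRG, aldolase and alpha-arrestin, 16 genes), 5 were listed (31.3%) and all 5 were higher, 4 of them being the genes described. The hexosamine and O-GlcNAc list of 14 had 3 in the table (21.4%), with OGT and MGEA5 (the O-GlcNAc-removing enzyme, 68.8% of WT) lower and GNPDA1 1.49-fold higher. OGT is the target of the guide and the list was chosen with earlier results known, so no excess is read from this share either. Of 20 genes of pyruvate use and oxidative phosphorylation 0 were listed, where 3.24% of 20 is less than 1 gene. Over all 426 listed genes 248 were higher and the median fold was 1.47, so a mainly higher direction is shared with the table. The levels of unlisted members, HIF1A and TXNIP among them, are not analysed here.

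EGLN3 ranked 19th of the 248 higher genes by fold, ALDOC 153rd, NDRG1 159th and ARRDC4 207th. The median fold of the 4 genes was 1.72, against 1.87 for all higher genes. Small changes are harder to call in genes with few reads, so each gene was also set beside the higher genes whose WT mean lay within 2-fold of its own. Among 75 such genes EGLN3 had the largest fold, with a median of 1.78 for the set. That rank depends on the window: HBE1, with a WT mean of 891 normalized counts, lies just beyond it and had a larger fold (3.32). NDRG1 ranked 24th of 76, ARRDC4 62nd of 74 and ALDOC 67th of 75, in sets with medians of 1.57, 1.64 and 2.05. Counted lengths of the 4 genes, 1982 to 4072 bases, fell within the middle of the higher genes (quartiles 1967 and 4481).

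**Figure D4:**
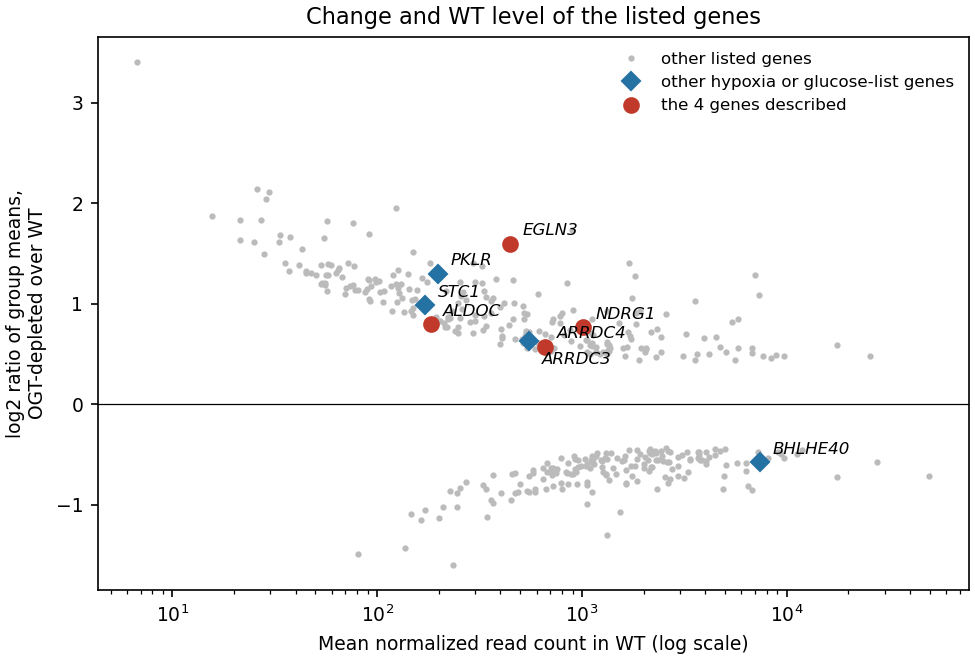
log2 ratio of group means (y axis, OGT-depleted over WT) against mean normalized read count in WT (x axis, log scale) for the 426 listed genes (grey), the 4 genes described (red circles) and 4 other genes of the hypoxia and glucose lists (blue diamonds). EGLN3 (3.03-fold) lies above the other marked genes, and BHLHE40 is the marked gene below 0.

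Likeness of pattern was measured as the Euclidean distance between log2 normalized counts over the 4 libraries, each gene centred on its own mean. Nearest to EGLN3 were the adhesion receptor gene GPR128 (0.10), the zinc-finger gene ZNF595 (0.17) and the imprinted gene NDN (0.21). Nearest to NDRG1 were the AP-1 subunit gene FOSB (0.032), the growth factor receptor gene FGFR3 (0.075) and the kinase pseudogene PRKY (0.079). Nearest to ALDOC were C4orf3 (0.050), the HLH inhibitor gene ID2 (0.063) and the zinc-finger gene ZC3H15 (0.067). Nearest to ARRDC4 were the mitochondrial ribosomal gene MRPL13 (0.063), the mitochondrial superoxide dismutase gene SOD2 (0.070) and GRINA (0.076). None of these is on the oxygen or glucose lists, but absence from the lists does not show that a gene is unrelated to oxygen or glucose. Between the 4 genes the distances were 0.26 to 0.31 among NDRG1, ALDOC and ARRDC4 and 0.80 to 1.03 from each of those to EGLN3. The nearest genes were picked as the smallest distances among all listed genes, so they are closer by construction. No typical distance between listed genes was worked out, so these values do not say whether the 4 genes are alike or unlike. With 4 libraries a pattern holds little beyond the size of the change and the replicate differences, and the libraries are those that put every gene in the table.

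Some markers of several blood lineages moved in the same libraries. The sums below cover only listed markers, which were all called as changed, so they describe those genes and not a lineage. The marker sets were chosen with earlier results of these data known, so no excess is read from their shares. In the table were 8 of 18 mast cell and basophil markers (44.4%, against 3.24% of all tested genes; 6 higher, 2 lower), with summed normalized counts of 7286 to 8753 in WT and 8672 to 9699 after depletion, which overlap. Of 18 erythroid markers 3 were listed (16.7%; 2 higher, 1 lower), with sums of 3380 to 3721 and 5244 to 6143. Of 21 megakaryocyte markers 2 were listed (9.52%), TUBB1 higher and F2R lower, with sums of 2546 to 2626 and 2008 to 2026. That sum follows F2R, whose WT mean was 2455 normalized counts against 131 for TUBB1. The monocyte and granulocyte list had 1 of 12 (8.33%; lower, 4297 to 4628 against 3141 to 3425) and the lymphoid list 1 of 12 (8.33%; higher, 22.1 to 29.9 against 97.8 to 132). No listed marker was at 0 in any library, the other markers, most defining megakaryocyte genes included, are not analysed here, and the part of these shifts in the 4 genes' values was not tested.

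The size of each change rests on how the libraries are scaled to each other. With library totals in place of the recovered size factors the log2 fold changes were 1.62 for EGLN3, 0.79 for NDRG1, 0.82 for ALDOC and 0.59 for ARRDC4. Size factors that DESeq2 takes from the listed genes alone moved the median of those genes by -0.49 and left 1.11 ± 0.15 for EGLN3, 0.28 ± 0.13 for NDRG1, 0.31 ± 0.20 for ALDOC and 0.085 ± 0.15 for ARRDC4 (SE). All 4 stayed above 0, with that of ARRDC4 inside its own error. That scaling assumes that the listed genes are balanced, and they were chosen as changed. Relative to the median listed gene (a log2 fold change of 0.56 with the recovered size factors), EGLN3 stood 1.04 higher on the log2 scale, ALDOC 0.24, NDRG1 0.21 and ARRDC4 0.014. With the DESeq2 factors these differences were 1.03, 0.23, 0.21 and 0.012.

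**Figure D5:**
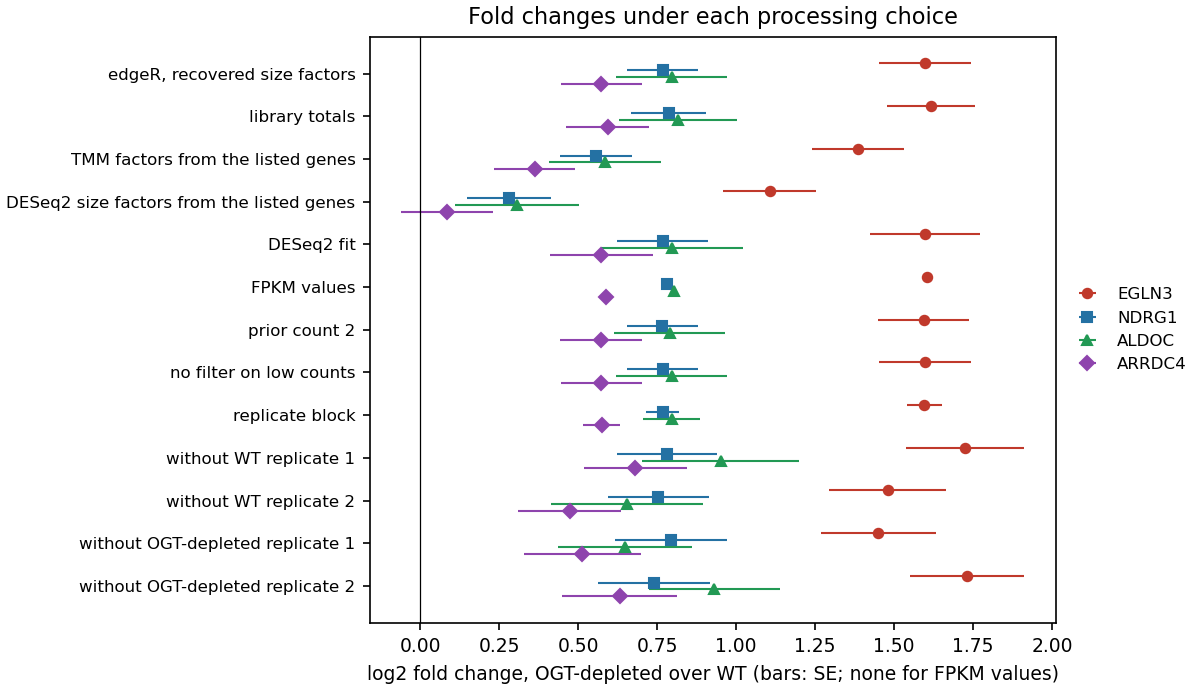
log2 fold change (x axis, OGT-depleted over WT; bars are SE, none for FPKM values) of the 4 genes under each processing choice (rows). EGLN3 stays between 1.11 and 1.73, and the other 3 stay above 0, with ARRDC4 closest to it (0.085) when DESeq2 size factors come from the listed genes.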

How the data were processed

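RNA of 4 MEG-01 libraries (2 WT, 2 OGT-depleted) was grouped by sample title. The authors deposited, for 426 genes they called as changed, raw read counts, FPKM (scaled by gene length and library depth), group means (a normalized signal), log2 fold changes and p-values with adjusted p-values, per the file headers. The submitters' processing notes list CASAVA 1.8, STAR 2.5, TopHat, DESeq2 and hg19 but not what each was used for. No source used here gives the counter, strand setting or annotation.

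Library totals were solved from counts, lengths and FPKM, and size factors (0.950 and 0.971 in WT, 1.06 and 1.04 after depletion) from the deposited group means. The number of genes the authors tested was recovered from the deposited adjusted p-values. edgeR 4.0.16 (glmQLFit, R 4.3.3, prior count 0.125) was fitted to the counts of all 426 genes with those size factors, and all 426 passed filterByExpr. SE was taken as the log2 fold change, without sign, divided by the square root of its F statistic. The common biological coefficient of variation, 9.90%, comes from genes chosen as changed. The fit was tested on simulated data. Replicates differed by more than counting noise (mean chi-square per gene 14.9 in WT and 22.2 after depletion), and counting errors cover counting only. Promoters were matched by symbol in RefSeq (GRCh38.p14). No window on chromosome 8, where NDRG1 lies, was used for the genes described, so windows are given for 3 of the 4 genes.

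The genes, lists and marker sets were chosen with earlier results of these data known. Genes named are the 4, OGT, listed members of the lists, the 3 genes of most similar pattern (pseudocount 0.5) and the nearest listed neighbours. The comparison with genes of similar abundance was added after the data were seen. Since the table holds called genes only, no p-value of a refit is given.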

Additional observations from a re-analysis of the deposited data

How the results depend on the processing

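Each of the 4 log2 fold changes kept its direction under all 12 alternatives. That adds little, since the genes were chosen as higher and most alternatives reuse the same counts and size factors. In each gene both depleted libraries lay above both WT libraries, so leaving out any library could not reverse the direction. Removing the filter on low counts changed nothing, as all 426 genes passed it. Taking TMM factors from the listed genes shifted their median by -0.21 and gave 1.39 for EGLN3, 0.56 for NDRG1, 0.58 for ALDOC and 0.36 for ARRDC4. DESeq2 size factors from the listed genes gave 1.11, 0.28, 0.31 and 0.085 in the same order. Under the other 10 alternatives each value moved by less than the SD between replicates. Leaving out one library at a time gave 1.45 to 1.73 for EGLN3, 0.74 to 0.79 for NDRG1, 0.65 to 0.95 for ALDOC and 0.47 to 0.68 for ARRDC4, from fits with 3 libraries in which the lone library is assumed to vary like the other group. With the replicate number as a replicate block the values were 1.60, 0.77, 0.80 and 0.57, with SE falling from 0.14 to 0.055 for EGLN3. Same-numbered libraries deviated together from their group means (Pearson r = 0.50 across the 426 listed genes, which are not independent replicates), but with 2 numbers and no label of a shared batch the libraries share only a number. Within a number the EGLN3 fold was 3.06 and 2.99. ALDOC rests on 159 to 367 reads per library, and each group on 2 libraries.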
